A study of Mus musculus with 12 samples.

Results

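The genes described here are 10 that belong to the glucocorticoid receptor and its response: the receptors *Nr3c1* and *Nr3c2*, the steroid-activating enzyme *Hsd11b1*, and *Fkbp5*, *Tsc22d3*, *Zbtb16*, *Sgk1*, *Dusp1*, *Errfi1* and *Cdkn1a*, whose transcription glucocorticoids are known to change. They were taken by symbol from 53801 genes, and all 10 were among the 15306 genes with enough counts to be tested. RNA was sequenced from whole hearts of adult male C57BL/6N mice after sham surgery, 1 day after acute myocardial infarction (AMI) and 7 days after AMI, 4 hearts per group, and each heart gave 1 library. AMI was made by permanent ligation of the left coronary artery, no allele or drug was added in any of these groups, and neither the day on which sham hearts were taken nor the hour of harvest is given in the sources used here. A whole heart holds the infarct, its border and remote muscle together, so fewer cells of a type and less RNA per cell cannot be told apart.

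Glucocorticoids (corticosterone in the mouse) are adrenal steroids that rise with the active phase of the day and with stress, surgery included. *Nr3c1* encodes the glucocorticoid receptor, which waits in the cytoplasm on HSP90 and its cochaperones, moves to the nucleus when it binds hormone, and then activates genes at glucocorticoid response elements or represses inflammatory genes. *Nr3c2* encodes the mineralocorticoid receptor, which binds corticosterone as well as aldosterone. Cardiomyocytes hold both receptors and have little of the enzyme HSD11B2, which inactivates corticosterone in kidney. HSD11B1 works the other way and regenerates active hormone inside cells.

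Promoter sequence from RefSeq (GRCm38.p6) was at hand for 8 of the 10 members, in 17 windows of 300 bases that ran from 250 bases before to 50 bases after an annotated transcription start. A full palindromic glucocorticoid response element (GRE), searched on both strands as the arm AGAACA, any 3 bases and the arm TGTTCT, stood in 1 of these 17 windows, at a start of *Sgk1*, and in 3 of 32851 windows (0.00913%) over all genes. The cAMP response element (CRE) TGACGTCA, a palindrome that also holds the shorter TGACG, stood in 2 of the 17 windows, 1 of *Dusp1* and 1 of *Errfi1*, and in 1.79% of all windows. These 3 stretches of 100 bases are shown because they are the member promoters with a full match; capitals mark the motif, and each reads 5′ to 3′ along the gene's own strand.
*Sgk1*, chr10:21993658-21993757, plus strand, GRE from 189 to 175 bases before the start: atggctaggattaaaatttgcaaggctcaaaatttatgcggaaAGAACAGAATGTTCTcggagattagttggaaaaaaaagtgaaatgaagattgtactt
*Dusp1*, chr17:26508562-26508661, minus strand, CRE from 143 to 136 bases before the start: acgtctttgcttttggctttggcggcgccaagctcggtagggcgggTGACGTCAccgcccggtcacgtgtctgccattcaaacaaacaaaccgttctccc
*Errfi1*, chr4:150854970-150855069, plus strand, CRE from 51 to 44 bases before the start: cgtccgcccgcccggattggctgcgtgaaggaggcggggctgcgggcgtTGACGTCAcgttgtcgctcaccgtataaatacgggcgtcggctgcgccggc
Looser letters were common: the single arm AGAACA stood in 4 of the 17 member windows and in 19.0% of all windows, and the core ACANNNTGT, which lies inside the GRE, in 2 and in 6.85%. A match is only a run of letters, and no binding was measured.

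The libraries held 23204551 to 32166517 counts, and each member had between 95 and 4242 counts in every library. Levels are given as CPM, counts scaled to a common library size, after TMM adjustment, whose factors were 0.781 to 0.917 in sham, 1.01 to 1.06 on day 1 and 1.10 to 1.17 on day 7. Because the factors moved with the groups, scaling by library totals alone shifted the median of all genes upward by 0.27 on the log2 scale in day 1 AMI against sham, by 0.40 in day 7 AMI against sham and by 0.13 in day 7 against day 1. On log2(TPM + 1), where TPM is RSEM's length-corrected abundance within a library, the same shifts were 0.30, 0.50 and 0.20. Heart muscle markers (11 of 11 with counts) summed to 100219 to 116438 CPM in sham, 61363 to 75844 on day 1 and 53857 to 62659 on day 7, while 8 fibroblast markers summed to 1092 to 1334, 1745 to 2369 and 8201 to 16454 CPM. None of the markers of either list was at or under 3 counts. The part of these changes in the results was not tested.

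In the reported edgeR fit on TMM-scaled counts the members called against sham were all lower. With limma on log2(TPM + 1), on the same genes, more were called higher than lower. On that scale the log2 fold changes of all genes shifted upward, by a median of 0.30 on day 1 and 0.50 on day 7. The members' medians lay below those of all genes there. In day 1 AMI against sham, edgeR's quasi-likelihood test called 3 of 10 members lower (*Sgk1*, *Nr3c2* and *Dusp1*) at an adjusted p below 0.05, where 19.9% of all genes tested were called lower, and 0 higher, where 22.0% of all genes were. At an unadjusted p below 0.05, 2 members were higher and 3 lower; DESeq2 called 0 higher and 3 lower, and limma on log2(TPM + 1) called 2 higher and 0 lower. In day 7 AMI against sham, 5 members were called lower (*Zbtb16*, *Hsd11b1*, *Nr3c2*, *Tsc22d3* and *Sgk1*), where 28.4% of all genes were, and 0 higher, where 30.9% were; the unadjusted test had 0 higher and 6 lower, DESeq2 called 0 higher and 6 lower, and limma on log2(TPM + 1) called 3 higher and 2 lower. Between day 7 and day 1, *Nr3c1* was called higher and *Hsd11b1* lower, where 24.2% and 22.8% of all genes were called. Only *Zbtb16* and *Hsd11b1* in day 7 AMI against sham, and *Hsd11b1* in day 7 against day 1, also passed a fold change of 2, which 5.88% and 2.69% of all genes passed downward and 15.3% and 8.55% upward. In day 1 AMI against sham edgeR had 0 members past it in either direction, where 7.79% of all genes passed upward and 2.98% downward. In CPM the 4 hearts of an AMI group all lay below the 4 sham hearts for 2 members on day 1 and 5 on day 7 (17.1% and 24.7% of all genes). They all lay above for 0 and 1 (19.6% and 28.3%). Between days, 2 members lay wholly higher on day 7 and 2 wholly lower (23.5% and 20.9% of all genes). The median log2 fold change of the members was -0.30, -0.48 and -0.34 in the 3 comparisons, against -0.01, 0.03 and 0.02 over all genes; on log2(TPM + 1) the members' medians were 0.04, 0.16 and -0.12, which lay 0.19, 0.28 and 0.30 below the medians of all genes. Of the members called lower, only *Hsd11b1* on day 7 was called lower in every other setting of scaling, filter, model and tool. Both AMI groups were compared with the same sham hearts. The same shares over all genes apply to the edgeR calls in the gene lists below. No share over all genes is given for the other settings.

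**Figure D1:**
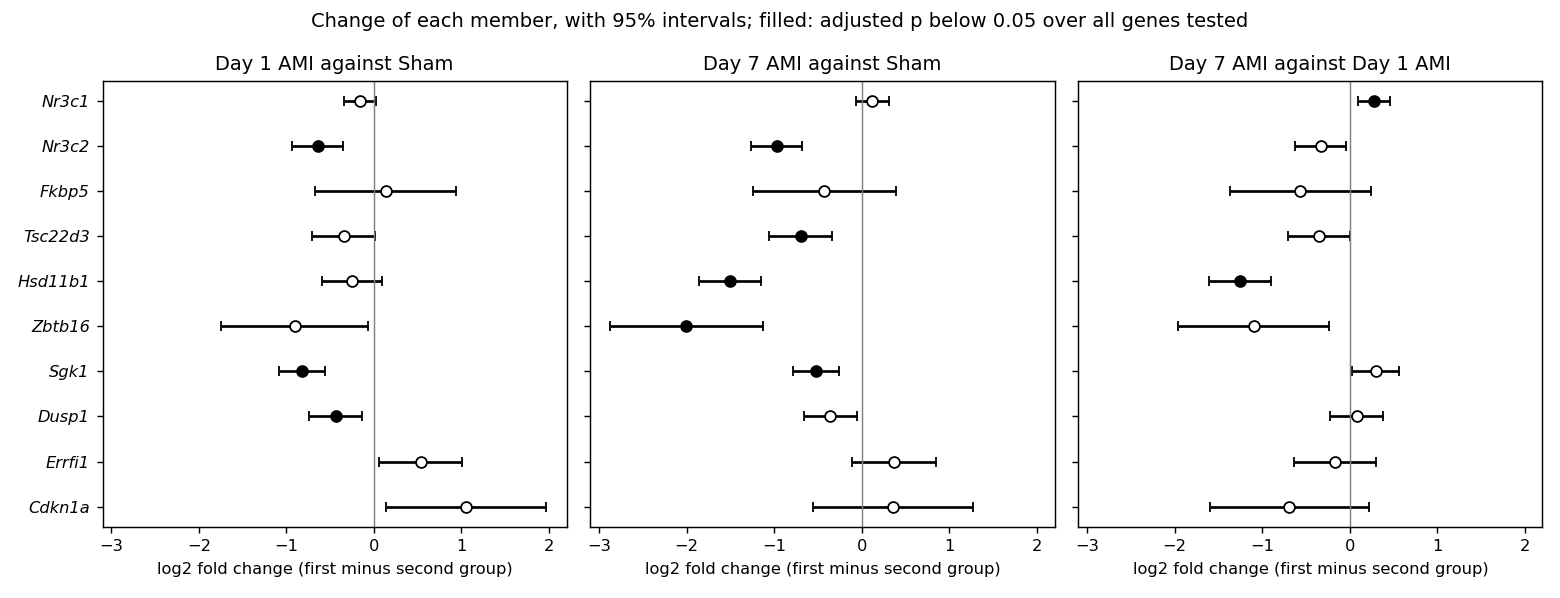
Log2 fold change (x axis) of each of the 10 members (y axis) in the 3 comparisons, from edgeR on TMM-scaled counts. Lines are 95% intervals by a normal approximation, narrower than the edgeR test implies. For *Zbtb16* on day 1 the line excludes 0, although the unadjusted p of the edgeR test was 0.0527. Filled points are calls at an adjusted p below 0.05 over all genes tested. Filled points lie below 0 for 3 members in day 1 AMI and for 5 in day 7 AMI against sham, though *Sgk1* on day 7 lay at 0.08 on log2(TPM + 1), and the longest lines belong to *Fkbp5*, *Zbtb16* and *Cdkn1a*.

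The size of the change in the glucocorticoid receptor transcript rested on the scaling. *Nr3c1* (ENSMUSG00000024431, chr18:39410545-39519421, minus strand) was at 102.6, 79.1, 98.5 and 94.4 CPM in the sham hearts, at 87.9, 73.5, 88.4 and 85.6 in day 1 AMI, and at 96.4, 108.8, 108.3 and 93.4 in day 7 AMI. Sham overlapped both AMI groups, and the highest day 1 heart lay under the lowest day 7 heart. The change from sham was -0.16 on the log2 scale (SE 0.0949, adjusted p = 0.195) on day 1, which turned to 0.22 on log2(TPM + 1), and 0.12 (SE 0.0948, adjusted p = 0.294) on day 7. The day 7 value was called higher in 4 of 9 other settings, at 0.52 (adjusted p = 8.26e-05) with library totals and 0.67 (adjusted p = 3.34e-05) with limma on log2(TPM + 1), which lay 0.097 and 0.23 above the median of all genes there. From day 1 to day 7 it rose 1.21-fold (log2 0.28, SE 0.0947, adjusted p = 0.0261). That call was kept in 9 of 12 fits with 1 heart left out, and lost without day 1 AMI replicate 2 or without day 7 AMI replicate 2 or 3; without the filter on low counts the adjusted p was 0.0554. Within groups *Nr3c1* was the steadiest member, with a pooled SD of 0.137 on the log2 scale, and 31.0% of the 13433 genes at 1 CPM or more had a smaller one.

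The mineralocorticoid receptor transcript was lower in both AMI groups. *Nr3c2* (ENSMUSG00000031618, chr8:76899442-77245012, plus strand) was at 21.7, 22.0, 25.5 and 25.8 CPM in sham, at 16.5, 11.5, 15.8 and 17.0 in day 1 AMI, and at 10.1, 13.3, 14.9 and 10.1 in day 7 AMI. In CPM every sham heart was above every AMI heart, and the AMI groups overlapped each other. In TPM sham, from 4.97 to 6.01, overlapped both day 1, from 2.84 to 5.17, and day 7, from 3.16 to 5.26. The fall was 1.56-fold on day 1 (log2 -0.64, SE 0.147, adjusted p = 0.0034) and 1.96-fold on day 7 (log2 -0.97, SE 0.149, adjusted p = 6.74e-05), and both calls held whichever heart was left out. On day 1 the call was lost with library totals (log2 -0.37, adjusted p = 0.0528) and with limma on log2(TPM + 1) (log2 -0.27, adjusted p = 0.189), and on day 7 limma gave -0.39 (adjusted p = 0.0484), which was lost with a pseudocount of 0.1 and without the filter on low values. Against the median of all genes, the day 1 change was -0.63 with TMM, -0.63 with library totals and -0.51 on log2(TPM + 1). Groups without overlap in CPM gave an exact two-sided permutation p of 0.0286, the smallest that 4 against 4 allows. An opposite-strand gene covers 3.82% of the exon bases of *Nr3c2*.

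Set side by side per length, the glucocorticoid receptor transcript gained on the mineralocorticoid one. The ratio of *Nr3c1* to *Nr3c2* TPM was 3.54 ± 0.197 (SD, n = 4) in sham, 5.31 ± 1.06 on day 1 and 8.09 ± 1.41 on day 7. In sham the ratio ran from 3.32 to 3.76 and in day 1 AMI from 4.53 to 6.84, so those groups did not overlap, whereas day 7 AMI, from 6.03 to 9.22, overlapped day 1. The ratio is given as a description, with no test. *Esr1*, the estrogen receptor alpha gene, was called higher on day 7 than in sham (log2 1.33, SE 0.28, adjusted p = 0.000919), from 0.604 ± 0.234 to 1.52 ± 0.203 CPM.

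**Figure D2:**
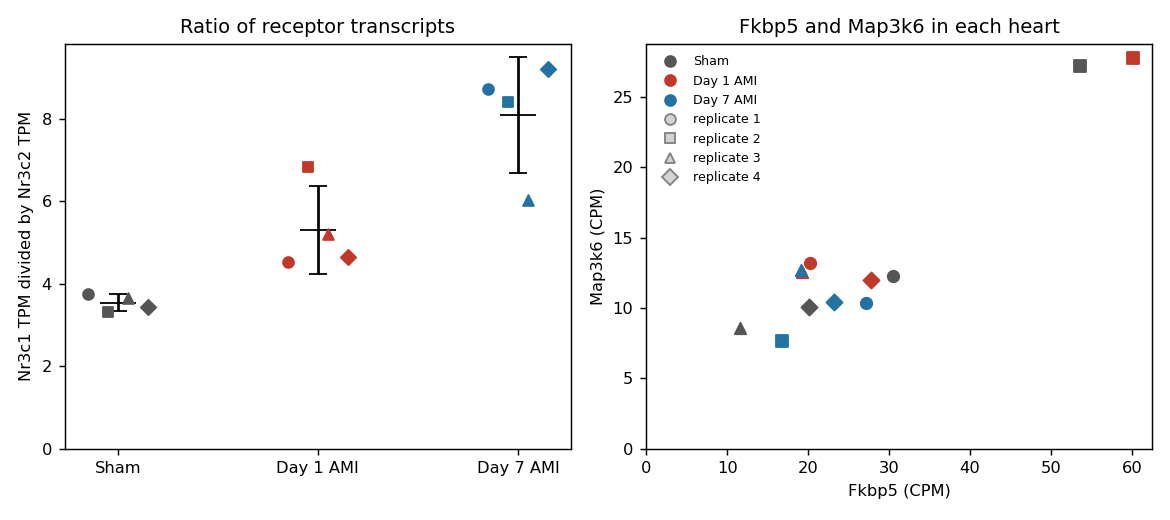
Left, the ratio of *Nr3c1* to *Nr3c2* TPM (y axis) in each heart by group, with the mean and SD; all 4 sham hearts lie at or under 3.76 and all AMI hearts above it. Right, *Fkbp5* (x axis) against *Map3k6* (y axis) in CPM for the 12 hearts; sham replicate 2 and day 1 AMI replicate 2 stand apart at over 50 CPM of *Fkbp5*.

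*Hsd11b1* (ENSMUSG00000016194, chr1:193221634-193264075, minus strand), the enzyme that turns inert 11-dehydrocorticosterone back into corticosterone, fell late. Its levels were 16.1, 19.0, 10.2 and 15.4 CPM in sham, 12.0, 12.7, 12.7 and 13.5 in day 1 AMI, and 6.16, 3.67, 5.64 and 5.88 in day 7 AMI. All day 7 hearts were below all hearts of the other groups, and day 1 lay inside the sham range. The fall on day 7 was 2.84-fold against sham (log2 -1.51, SE 0.183, adjusted p = 8.80e-06) and 2.38-fold against day 1 (log2 -1.25, SE 0.182, adjusted p = 9.14e-05), and both were called in 9 of 9 other settings of scaling, filter, model and tool and in 12 of 12 fits with 1 heart left out. The day 1 change was -0.25 (SE 0.175, adjusted p = 0.262) and reached 0.08 on log2(TPM + 1).

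The genes that work around this enzyme did not share its course. *H6pd*, whose product supplies HSD11B1 with NADPH, was at 61.1 ± 5.75, 62.9 ± 6.11 and 53.7 ± 7.04 CPM (SD, n = 4) in sham, day 1 and day 7, and was called in none of the comparisons (adjusted p = 0.779 and 0.143 against sham, 0.0892 between days). The ratio of *Hsd11b1* to *H6pd* TPM was 0.957 ± 0.283 in sham, 0.738 ± 0.0668 on day 1 and 0.383 ± 0.0459 on day 7. The opposing enzyme *Hsd11b2* was too low to be tested, with 0 to 3 counts per library in sham, 3 to 6 on day 1 and 8 to 12 on day 7. Among the 6 testable genes of steroid supply, metabolism and transport, 2 were called higher and 1 lower on day 1 and 3 higher and 0 lower on day 7 by edgeR, with 3 higher and 0 lower on day 7 by DESeq2 and 4 and 0 by limma on log2(TPM + 1). *Star*, which carries cholesterol into mitochondria, was at 3.57 ± 0.157 CPM in sham, 24.6 ± 5.35 on day 1 (log2 2.78, SE 0.158, adjusted p = 2.85e-07) and 9.17 ± 1.16 on day 7 (log2 1.36, SE 0.158, adjusted p = 5.85e-06). The genes of the next steps of corticosterone synthesis, named after their counts were seen, had few reads: *Cyp11a1* had at most 7 counts in a library, *Cyp11b1* at most 1 and *Cyp11b2* 0.

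**Figure D3:**
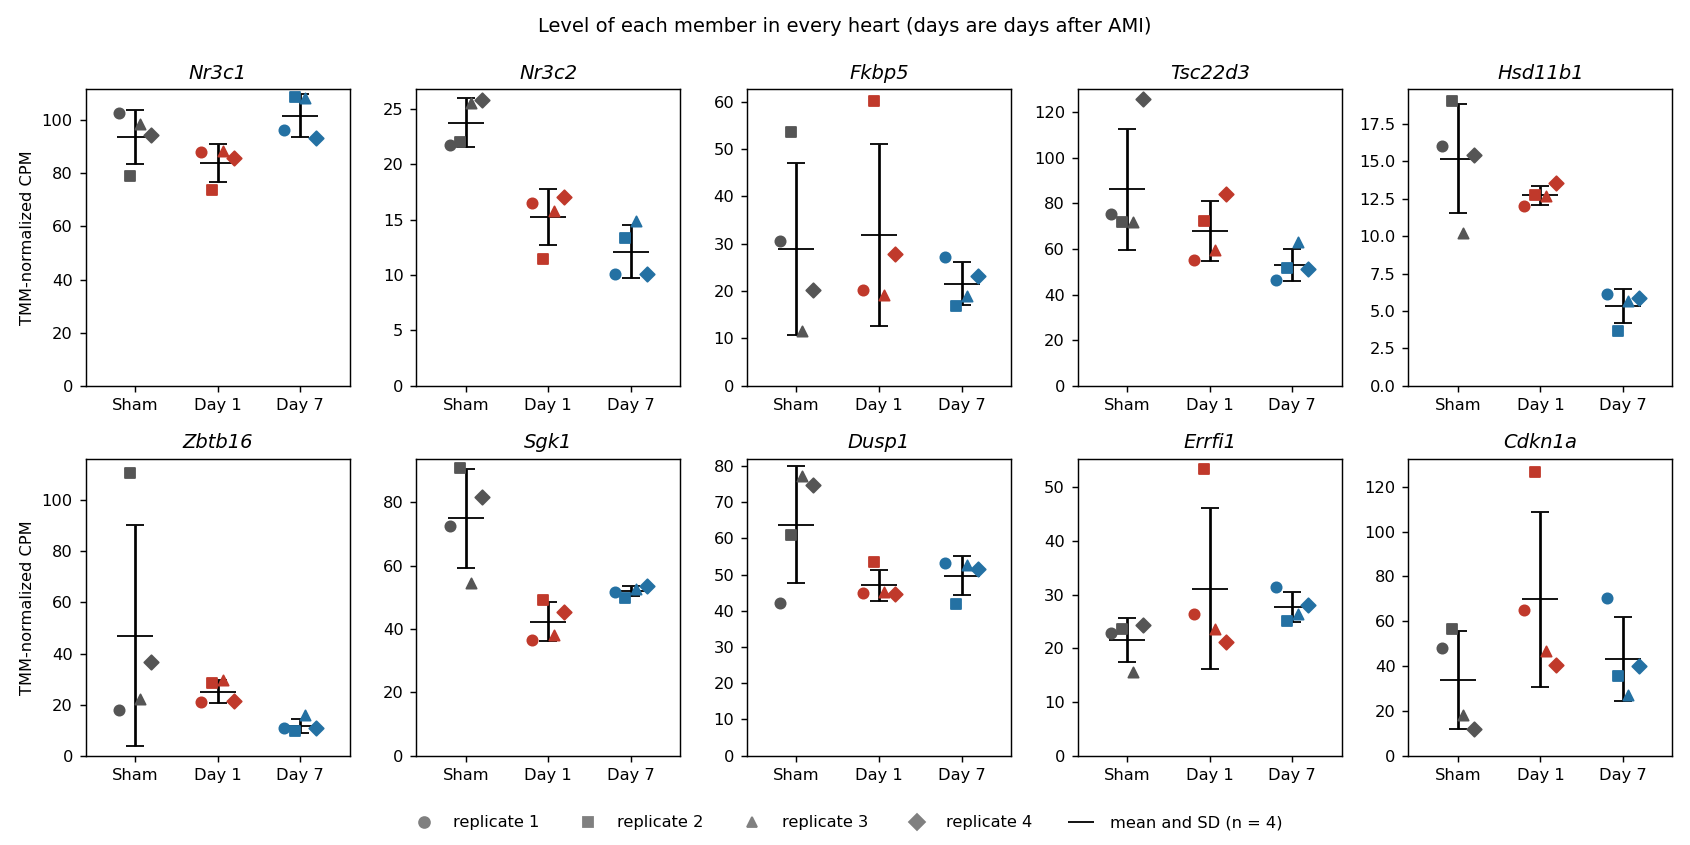
TMM-scaled CPM (y axis, from 0) of the 10 members in the 3 groups of hearts, each symbol 1 heart with its replicate number and bars the mean and SD. For *Nr3c2* every sham heart lies above every AMI heart, for *Sgk1* the 3 groups do not overlap and for *Hsd11b1* day 7 lies below the rest. In TPM, not shown, sham overlapped both AMI groups for *Nr3c2* and *Sgk1*. *Zbtb16*, *Errfi1* and *Cdkn1a* each have 1 heart far above its group, and *Fkbp5* has such a heart in sham and in day 1 AMI, replicate 2 each time.

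*Fkbp5* (ENSMUSG00000024222, chr17:28399094-28517527, minus strand), a cochaperone that lowers the receptor's affinity for hormone and is itself induced by it, varied more between hearts than between groups. Sham hearts were at 30.5, 53.5, 11.6 and 20.2 CPM, day 1 hearts at 20.3, 60.1, 19.2 and 27.8, and day 7 hearts at 27.2, 16.8, 19.1 and 23.1. Replicate 2 was the highest in sham and in day 1 AMI and the lowest in day 7 AMI, and all groups overlapped. The log2 changes of 0.14 (SE 0.411) on day 1 and -0.43 (SE 0.415) on day 7 had adjusted p-values of 0.816 and 0.392, and their direction turned with the heart left out: day 1 became -0.37 without day 1 AMI replicate 2, and day 7 became 0.06 without sham replicate 2. Their 95% intervals, by a normal approximation that makes them too narrow, ran from -0.67 to 0.94 and from -1.24 to 0.39.

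The partner that competes with FKBP5 for the receptor complex moved between groups. *Fkbp4*, which promotes nuclear transport of the hormone-bound receptor, fell from 463 ± 60.6 CPM in sham to 287 ± 70.7 on day 1 (log2 -0.69, SE 0.161, adjusted p = 0.00387) and 178 ± 24.7 on day 7 (log2 -1.37, SE 0.163, adjusted p = 7.15e-06); the day 1 call was lost with library totals and with limma. *Hsp90aa1*, the inducible HSP90 that holds the receptor ready, was higher on both days (log2 1.12, SE 0.152, adjusted p = 0.000103 on day 1 and 0.59, SE 0.151, adjusted p = 0.00402 on day 7). Of 16 chaperones and cochaperones of the receptor, 10 were called higher and 2 lower on day 1, 1 higher and 7 lower on day 7, and 0 higher and 14 lower from day 1 to day 7, where DESeq2 called 0 and 15 and limma on log2(TPM + 1) 0 and 5. The day 7 split against sham turned to 7 higher and 1 lower on log2(TPM + 1). Over all genes edgeR called 22.0% higher and 19.9% lower on day 1, 30.9% and 28.4% on day 7, and 24.2% and 22.8% between days. The inducible HSP70 genes *Hspa1a* and *Hspa1b*, near-identical copies whose reads may have been split between them, had the largest day 1 changes of this list, at 3.00 (SE 0.639, adjusted p = 0.00213) and 3.19 (SE 0.571, adjusted p = 0.000643) on the log2 scale. The *Fkbp5* to *Fkbp4* TPM ratio was 0.0384 ± 0.0253 in sham, 0.0757 ± 0.0675 on day 1 and 0.0716 ± 0.0106 on day 7, with overlap between groups.

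*Tsc22d3* (ENSMUSG00000031431, chrX:140539528-140600659, minus strand) encodes GILZ, a leucine zipper protein through which glucocorticoids restrain NF-kB and AP-1. It was at 75.3, 72.0, 71.7 and 125.9 CPM in sham, 55.2, 72.2, 59.4 and 84.3 in day 1 AMI, and 46.5, 51.6, 62.8 and 51.4 in day 7 AMI. In CPM all day 7 hearts lay below all sham hearts, and sham replicate 4 stood above the rest of its group. In TPM day 7, from 47.16 to 59.44, overlapped sham, from 47.22 to 81.11. The fall on day 7 was 1.63-fold (log2 -0.70, SE 0.183, adjusted p = 0.00427), and it was called whichever heart was left out, but not with library totals (log2 -0.30, adjusted p = 0.164) or with limma on log2(TPM + 1) (log2 -0.11, adjusted p = 0.577). Taken from the median of all genes, the day 7 change was -0.73 with TMM, -0.72 with library totals and -0.55 on log2(TPM + 1). Day 1 was at -0.35 (SE 0.181, adjusted p = 0.14), or 0.01 on log2(TPM + 1), 0.22 below the median of all genes there.

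*Zbtb16* (ENSMUSG00000066687, chr9:48654297-48836222, minus strand), the zinc finger repressor PLZF and among the most hormone-responsive transcripts in many tissues, had the largest fall and 1 extreme heart. Sham hearts were at 18.0, 110.7, 22.3 and 36.7 CPM, day 1 hearts at 21.1, 28.4, 29.6 and 21.4, and day 7 hearts at 10.7, 9.54, 15.7 and 11.0. In CPM the day 7 hearts were all below the other groups, while day 1 sat within the sham range. In TPM day 7, from 3.39 to 5.75, overlapped sham, from 4.07 to 30.09. Against sham the day 7 fall was 4.01-fold (log2 -2.01, SE 0.447, adjusted p = 0.00144), and limma on log2(TPM + 1) gave -0.90 (adjusted p = 0.066). Without sham replicate 2 it was -1.13 on the log2 scale and still called, and the day 1 value moved from -0.91 (SE 0.428, adjusted p = 0.104) to -0.03. From day 1 to day 7 the log2 change was -1.10 (SE 0.441, adjusted p = 0.054), in groups that did not overlap.

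*Sgk1* (ENSMUSG00000019970, chr10:21882184-21999903, plus strand), a kinase induced by both receptors that promotes sodium uptake and carries the full GRE shown above, fell on day 1. It was at 72.5, 90.8, 54.5 and 81.7 CPM in sham, 36.5, 49.3, 38.2 and 45.4 in day 1 AMI, and 51.8, 49.9, 52.6 and 53.5 in day 7 AMI. In CPM the 3 groups did not overlap, with sham highest and day 1 lowest. The lowest sham heart, at 54.5 CPM, stood close to the highest day 7 heart, at 53.5. In TPM all 3 groups overlapped, at 30.98 to 56.69 in sham, 23.73 to 39.58 on day 1 and 38.23 to 56.3 on day 7. The day 1 fall was 1.77-fold (log2 -0.82, SE 0.135, adjusted p = 0.000365), and limma on log2(TPM + 1) gave -0.45 (adjusted p = 0.074). The day 7 value was -0.53 (1.44-fold lower, SE 0.135, adjusted p = 0.00369), but -0.13 (adjusted p = 0.448) with library totals and 0.08 on log2(TPM + 1), which was 0.36 below the median of all genes on that scale. The difference between the days was 0.29 (SE 0.135, adjusted p = 0.0874).

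Among 5 testable sodium handling genes that aldosterone regulates, 1 was called higher and 0 lower on day 1, and 0 higher and 2 lower on day 7 by edgeR and DESeq2 alike. On log2(TPM + 1) these were 4 and 0 on day 1 and 3 and 0 on day 7.

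*Dusp1* (ENSMUSG00000024190, chr17:26505590-26562128, minus strand) encodes a phosphatase that switches off p38 and JNK, and is induced both by glucocorticoids and as an immediate early gene. Sham hearts were at 42.1, 61.0, 77.2 and 74.8 CPM, day 1 hearts at 44.9, 53.4, 45.3 and 44.6, and day 7 hearts at 53.1, 41.7, 52.6 and 51.4. Sham replicate 1 was lower than every day 1 heart, so the groups overlapped. The day 1 fall of 1.36-fold (log2 -0.44, SE 0.154, adjusted p = 0.034) was called in 7 of 12 fits with 1 heart left out, and lost without sham replicate 3 or 4 or day 1 AMI replicate 1, 3 or 4. It was not called with library totals, with the replicate block, with only the groups compared or with limma (log2 -0.07 on log2(TPM + 1), adjusted p = 0.772). Measured from the median of all genes, day 1 was at -0.43 with TMM, -0.44 with library totals and -0.31 on log2(TPM + 1). Day 7 was at -0.36 (SE 0.154, adjusted p = 0.0577), or 0.24 on log2(TPM + 1), which was -0.19 from the median of all genes there.

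Of 16 other immediate early genes, 14 were called higher and 0 lower on day 1 by edgeR and by DESeq2, and 7 higher and 1 lower on day 7. The day 7 count became 13 and 0 with library totals and 15 and 0 with limma on log2(TPM + 1). The edgeR shares over all genes were 22.0% higher and 19.9% lower on day 1, and 30.9% and 28.4% on day 7. *Atf3*, a stress-induced transcription factor, rose from 2.71 ± 1.02 to 21.5 ± 10.2 CPM on day 1 (log2 2.97, SE 0.37, adjusted p = 6.17e-05). *Egr2*, a growth-factor-induced zinc finger gene, was at 0.475 ± 0.153 CPM in sham and 5.32 ± 1.53 on day 7 (log2 3.46, SE 0.441, adjusted p = 1.34e-05). Of 14 family relatives of the members, 7 were called higher and 4 lower on day 1, and 3 and 4 on day 7, which became 8 and 0 on log2(TPM + 1). *Dusp2*, another MAP kinase phosphatase, reached 1.57 ± 0.514 CPM on day 7 from 0.23 ± 0.16 in sham (log2 2.73, SE 0.405, adjusted p = 5.12e-05).

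*Errfi1* (ENSMUSG00000028967, chr4:150853919-150868892, plus strand) encodes MIG6, a feedback inhibitor of the EGF receptor family. It was at 22.8, 23.6, 15.5 and 24.3 CPM in sham, 26.4, 53.3, 23.6 and 21.2 in day 1 AMI, and 31.4, 25.1, 26.3 and 28.1 in day 7 AMI. All day 7 hearts were above all sham hearts, by less than 1 CPM at the closest, and day 1 AMI replicate 2 stood far above its group. Neither the day 1 change of 0.53 (SE 0.243, adjusted p = 0.0928), which was 0.14 without that heart, nor the day 7 change of 0.37 (SE 0.243, adjusted p = 0.211) passed the edgeR test on TMM-scaled counts. With library totals they were 0.81 (adjusted p = 0.0145) and 0.77 (adjusted p = 0.0136), both called, and 3 of 9 other settings called day 1 and 5 of 9 day 7. Relative to the median of all genes, *Errfi1* on day 1 and day 7 was at 0.54 and 0.34 with TMM, and at 0.55 and 0.34 with library totals. Of its 4 targets, the ERBB receptors, 1 was called higher and 2 lower on day 7, or 2 and 0 with library totals and on log2(TPM + 1). *Egfr* was higher (log2 1.31, SE 0.221, adjusted p = 0.000155), from 7.85 ± 2.81 to 19.4 ± 3.89 CPM, and *Erbb3* (log2 -0.58, SE 0.12, adjusted p = 0.000776) and *Erbb4* (log2 -0.55, SE 0.209, adjusted p = 0.034) were lower.

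*Cdkn1a* (ENSMUSG00000023067, chr17:29090976-29100727, plus strand) encodes the cell-cycle inhibitor p21, a target of p53 as well as of the glucocorticoid receptor. Sham hearts were at 48.2, 56.5, 18.3 and 11.7 CPM, day 1 hearts at 65.0, 126.5, 46.7 and 40.6, and day 7 hearts at 70.2, 35.4, 27.1 and 40.1. Day 1 AMI replicate 2 was the highest of all 12, and all groups overlapped. The mean rose 2.07-fold on day 1 (log2 1.05, SE 0.467) without passing the test (adjusted p = 0.0857). Leaving out sham replicate 2 brought it to 1.42 and past the threshold, and leaving out day 1 AMI replicate 2 brought it to 0.59. The day 1 rise was called in 5 of 9 other settings, at 1.32 (adjusted p = 0.033) with library totals and 1.46 (adjusted p = 0.0235) with limma on log2(TPM + 1). From the median of all genes, day 1 lay at 1.06 both with TMM and with library totals, and at 1.23 on log2(TPM + 1). Day 7 was at 0.36 (adjusted p = 0.526), or 1.18 (adjusted p = 0.041) with limma. An opposite-strand gene covers 7.68% of its exon bases.

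Of 12 other p53 pathway genes, edgeR called 7 higher and 3 lower on day 1 and 9 higher and 3 lower on day 7. With limma on log2(TPM + 1) these were 9 and 1, and 10 and 0. Their summed level was 1121 to 1464 CPM in sham, 851 to 1150 on day 1 and 887 to 1058 on day 7. *Gdf15*, a stress cytokine, was at 0.621 ± 0.0797 CPM in sham, 14.4 ± 9.15 on day 1 (log2 4.52, SE 0.526, adjusted p = 4.17e-05) and 11.1 ± 3.58 on day 7 (log2 4.15, SE 0.527, adjusted p = 1.29e-05). *Mdm2*, which feeds back on p53, was at 49.5 ± 8.17, 51.7 ± 2.72 and 41.6 ± 2.11 CPM, and its day 7 call (log2 -0.25, SE 0.0999, adjusted p = 0.0418) turned to 0.16 with library totals and 0.26 on log2(TPM + 1), and was lost without the filter, with the replicate block and with only the groups compared.

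Beyond the members, 32 further genes known to be induced by glucocorticoids were tested. On day 1, 6 were called higher and 14 lower, or 18.8% and 43.8% of the list, against 22.0% and 19.9% of all genes. On day 7 against sham 2 were higher and 19 lower, or 6.25% and 59.4%, against 30.9% and 28.4% of all genes. From day 1 to day 7 3 were higher and 13 lower, where 24.2% and 22.8% of all genes were. With limma on log2(TPM + 1) the counts were 9 and 5, 4 and 8, and 4 and 9. The list's median log2 fold changes of -0.47, -0.83 and -0.46 became -0.10, -0.19 and -0.16 on that scale, which lay 0.33, 0.62 and 0.34 below the medians of all genes.

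The list held genes of opposite course. *Klf9*, a Krüppel-like factor with strong receptor binding sites, was at 119.7, 102.1, 127.0 and 142.7 CPM in sham, 53.9, 58.5, 66.9 and 70.7 on day 1 and 49.6, 58.4, 81.4 and 51.7 on day 7; both AMI groups lay wholly below sham (log2 -0.98, SE 0.151, adjusted p = 0.000238 and -1.03, SE 0.151, adjusted p = 4.73e-05). In TPM *Klf9* in day 7 AMI replicate 3, at 41.7, lay above sham replicate 2, at 39.5. *Arrdc2*, an arrestin-domain gene, fell from 24.0 ± 9.60 to 6.40 ± 0.797 CPM on day 7 (log2 -1.91, SE 0.277, adjusted p = 4.20e-05), and *Ptgds*, a prostaglandin D synthase, from 269 ± 82.3 to 47.1 ± 14.6 (log2 -2.51, SE 0.224, adjusted p = 5.81e-07). *Lcn2*, the iron-binding protein lipocalin 2, went from 8.64 ± 5.16 to 129 ± 24.8 CPM on day 1 (log2 3.89, SE 0.46, adjusted p = 4.44e-05) and was at 2.99 ± 2.54 on day 7. *Il1r2* encodes a decoy that binds IL-1 without signalling; its levels were 0 to 0.246 CPM in sham, 1.93 to 11.3 on day 1 and 0.116 to 0.442 on day 7. Neutrophil markers summed to 2.96 to 63.5 CPM in sham, 47.8 to 169 on day 1 and 8.80 to 47.8 on day 7; 10 of 10 had counts, and their part in these rises was not tested. *Anxa1*, annexin A1, rose to 79.3 ± 13.2 CPM on day 7 from 21.5 ± 3.24 in sham (log2 1.89, SE 0.129, adjusted p = 6.94e-08).

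Genes that glucocorticoids repress were higher after AMI. Of 11 inflammatory genes of this kind, 9 were called higher and 0 lower on day 1, and 8 and 0 on day 7. On day 7 DESeq2 called 7 and 0, and limma on log2(TPM + 1) 9 and 0. Over all genes edgeR called 22.0% higher and 19.9% lower on day 1, and 30.9% and 28.4% on day 7. *Ccl2*, the monocyte chemokine, rose from 2.39 ± 2.26 to 32.8 ± 7.99 CPM on day 1 (log2 3.73, SE 0.483, adjusted p = 7.65e-05) and stood at 5.64 ± 2.62 on day 7. *Il6* had 0 to 0.156 CPM in sham, 0.785 to 1.95 on day 1 and 0.849 to 1.32 on day 7. Leukocyte markers summed to 79.8 to 133 CPM in sham, 292 to 426 on day 1 and 289 to 481 on day 7, and macrophage markers to 338 to 532, 611 to 878 and 912 to 1388, with 10 of 10 and 11 of 11 having counts; their part in these rises was not tested.

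Receptor coregulators gave a split that rested on the scaling. Of 14, edgeR called 3 higher and 5 lower on day 1 and 1 higher and 7 lower on day 7, but limma on log2(TPM + 1) called 5 and 0, and 10 and 1. *Tgif1*, a corepressor of the TALE class, rose under every scaling (log2 1.38, SE 0.161, adjusted p = 4.26e-05 on day 1 and 2.27, SE 0.161, adjusted p = 9.41e-08 on day 7), and *Ppargc1a*, the coactivator PGC-1alpha, was at -0.60 on day 1 (SE 0.126, adjusted p = 0.00204), a call that limma did not make.

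**Figure D4:**
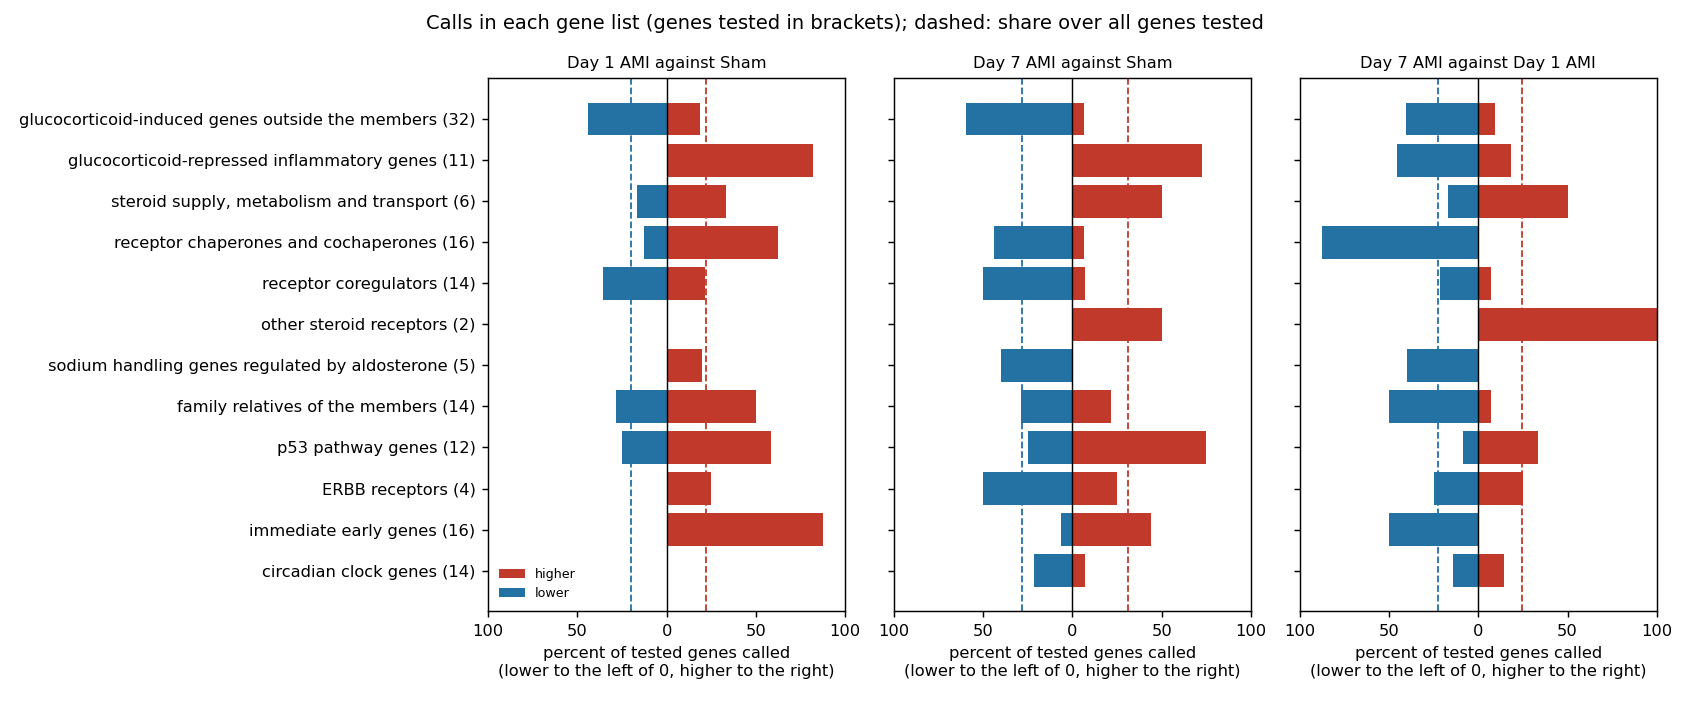
Percent of the tested genes of each list (y axis, number tested in brackets) called higher (right of 0) or lower (left of 0) by edgeR on TMM-scaled counts in the 3 comparisons; dashed lines mark the share over all genes tested. Glucocorticoid-induced genes were called lower in 43.8% and 59.4% of cases against sham. The members and the calls on log2(TPM + 1), where the median of all genes moved upward, are not drawn. On that scale the balance of calls changed side for the members, coregulators and induced genes in day 1 AMI against sham. In day 7 AMI against sham it changed side for the members, coregulators, chaperones, family relatives, ERBB receptors, clock genes and sodium handling genes.

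Hearts of 1 group differed widely in these genes. The pooled within-group SD was 0.828 for *Cdkn1a*, 0.714 for *Fkbp5* and 0.713 for *Zbtb16* on the log2 scale, against a median of 0.178 over 13433 genes, and at least 98.4% of those genes had a smaller SD. *Errfi1* followed at 0.396, *Tsc22d3* and *Hsd11b1* at 0.297 each, *Dusp1* at 0.261, *Nr3c2* at 0.236 and *Sgk1* at 0.219. Some members, variable or steady, peaked in the same hearts. Sham replicate 2 had the highest sham value of *Fkbp5*, *Hsd11b1*, *Zbtb16*, *Sgk1* and *Cdkn1a*. Day 1 AMI replicate 2 had the highest day 1 value of *Fkbp5*, *Sgk1*, *Dusp1*, *Errfi1* and *Cdkn1a*, while it was lowest in *Nr3c1* and *Nr3c2*. The variable *Errfi1* was instead highest in sham replicate 4, and *Zbtb16* in day 1 AMI replicate 3. In day 7 AMI, replicate 1 was highest for 5 members, where 32.8% of all genes had their highest day 7 value. Replicate 2 was lowest for 6 members, for which no share over all genes was taken. Sham replicate 2 and day 1 AMI replicate 2 held the highest value of their group for 27.9% and 31.1% of all genes. Without sham replicate 2 and day 1 AMI replicate 2 together, the counts of members called were 0 higher and 3 lower on day 1, 1 and 5 on day 7, and 2 and 3 between days.

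The wider list of induced genes singled out some of the same hearts and some others. Of its 32 genes, 20 were highest in day 1 AMI replicate 2, against 31.1% of all genes on day 1, and 20 in day 7 AMI replicate 3, against 23.0% on day 7. Sham replicates 2 and 4 had 13 and 11, against 27.9% and 22.8% of all genes. *Per1*, a clock gene that glucocorticoids also induce, was at 48.1, 49.2, 54.4 and 99.4 CPM in sham, 26.8, 72.6, 27.8 and 31.7 on day 1 and 15.0, 30.7, 57.0 and 24.4 on day 7. Its highest hearts were sham replicate 4, day 1 AMI replicate 2 and day 7 AMI replicate 3. *Per1* was called lower on day 7 (log2 -0.98, SE 0.397, adjusted p = 0.0454), in overlapping groups; DESeq2, library totals and limma did not call it.

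Clock output differed between hearts as well. *Dbp*, a gene driven by the clock and chosen here after its values were seen, was at 52.6, 69.3, 146 and 238 CPM in sham, 131, 48.5, 135 and 93.7 on day 1 and 5.02, 79.8, 136 and 44.4 on day 7. Sham replicate 4 and day 7 AMI replicate 3 were highest in both *Per1* and *Dbp*, but day 1 AMI replicate 2 was highest in *Per1* and lowest in *Dbp*. Of 14 clock genes, edgeR called 0 on day 1 in either direction, as did DESeq2, with limma on log2(TPM + 1) calling 1 higher and 0 lower. On day 7 it called 1 higher and 3 lower, a split that became 2 and 2 with library totals and 3 and 1 with limma. *Npas2* was higher on day 7 (log2 1.14, SE 0.375, adjusted p = 0.0171) and *Hlf* lower (log2 -1.22, SE 0.347, adjusted p = 0.00736). Erythroid markers summed to 4464 CPM in sham replicate 2 and to 491 to 1181 in the other sham hearts, and immediate early genes to 878 CPM in day 1 AMI replicate 2 and to 462 to 720 in the other day 1 hearts. These 2 hearts also had the highest neutrophil, leukocyte and macrophage marker sums of their groups and the lowest heart muscle sum: neutrophil markers summed to 63.5 CPM in sham replicate 2 and 2.96 to 34.4 in the other sham hearts, and to 169 in day 1 AMI replicate 2 and 47.8 to 89.7 in the other day 1 hearts. The part of these differences in the members' values was not tested.

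**Figure D5:**
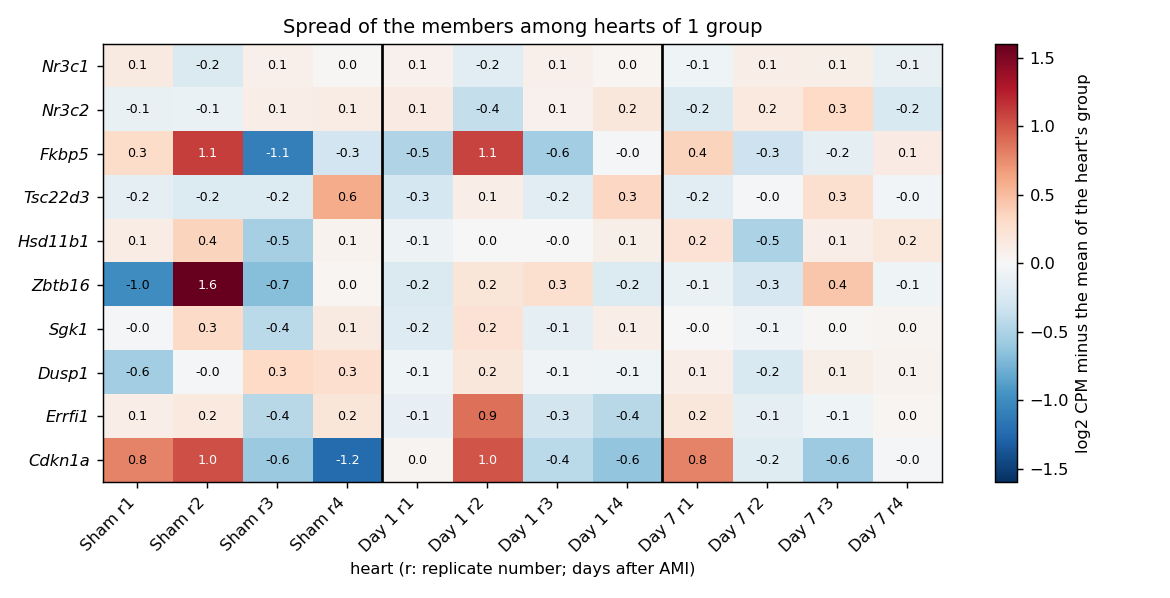
Log2 CPM of each member (rows) in each of 12 hearts (columns) minus the mean of that heart's group; red is above and blue below the group mean. Sham replicate 2 and day 1 AMI replicate 2 hold the deepest red cells, in *Zbtb16*, *Fkbp5*, *Cdkn1a* and *Errfi1*, and the rows of *Nr3c1* and *Sgk1* are pale.

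Some genes outside the list followed a member closely over the 12 hearts. Likeness was measured as the root mean square difference between centred log2 CPM profiles among 13423 genes, which share libraries and scaling. The nearest to *Fkbp5* was *Map3k6*, itself on the list of induced genes, at 0.304, followed by *Ankrd37* and *Wnt9b*. *Map3k6* was at 12.3, 27.2, 8.58 and 10.1 CPM in sham, 13.2, 27.8, 12.6 and 12.0 on day 1 and 10.3, 7.65, 12.7 and 10.4 on day 7, with the same highest hearts as *Fkbp5* in sham and day 1 AMI. The nearest to *Sgk1* was *Vwf*, the endothelial von Willebrand factor gene, at 0.112, followed by *Atp10d* and *Ggt5*. *Vwf* was at 125.1, 156.0, 83.3 and 119.2 CPM in sham, 54.5, 85.6, 65.7 and 83.3 on day 1 and 92.0, 73.1, 83.0 and 91.2 on day 7. The 8 endothelial markers together, *Vwf* included, summed to 1014 to 1177 CPM in sham, 831 to 886 on day 1 and 1269 to 1422 on day 7, so the sum was lowest on day 1 like *Sgk1* but highest on day 7.

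The remaining members had other neighbours. *Nr3c1* lay nearest to *Tjp1*, *Jmjd1c* and *Zmym4*, the first at 0.0596. *Nr3c2* lay nearest to *Mettl7a1* (0.0969), *Ptpn3* and *Smim20*, and *Hsd11b1* to *Phyhd1* (0.195), *Pla2g12a* and *C2cd4b*. *Tsc22d3* was closest to *Irx3* (0.167), *Llgl2* and *Zfp30*, and *Dusp1* to *Sh3bp5* (0.121), *Col23a1* and *Kcnj8*. *Zbtb16* lay nearest to *1010001N08Rik* (0.458), *G0s2* and *Ppl*, *Cdkn1a* to *Igf2bp2* (0.365), *Ms4a4a* and *Tnfsf9*, and *Errfi1* to *Gcnt2* (0.224), *Ctla2a* and *Tbc1d25*. The difference is not scaled to spread, so it tends to be larger for members that vary more, and its size cannot be compared between members.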

How the data were processed

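Whole hearts from 3 groups of 4 mice (sham, day 1 AMI, day 7 AMI) gave 12 libraries, whose labels name the group and replicate. The authors prepared cDNA with random hexamers, read 150-bp pairs, removed adapters (Cutadapt) and aligned the reads (STAR 2.4.0j) to Ensembl GRCm38; the submitters' processing notes also list CASAVA 1.8, RSEM and mm10. They deposited raw counts per gene, without normalization, and TPM per gene from RSEM. The tool behind the counts, its strand setting and its treatment of reads shared by several genes are not given in the sources used here, so reads of a gene and an overlapping antisense gene cannot be told apart. Where the labels do not say that hearts were handled separately beyond being separate samples, p-values measure the spread between these samples. No pair of libraries within a group repeated another (lowest chi-square per degree of freedom 9.25).

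Counts were fitted with edgeR 4.0.16 in R 4.3.3: TMM scaling, filterByExpr by group, 1 quasi-likelihood fit of the 3 groups over 15306 genes, and Benjamini-Hochberg adjustment over all of them. A call is an adjusted p below 0.05; a fold change of 2, which the study also asked for, is given beside it. Standard errors are those implied by the F statistic, and CPM on the log2 scale used a prior count of 2. Single members were also compared by exact two-sided permutation tests on log2 CPM; adjusted over the 30 tests, the smallest p was 0.0714. TPM served for ratios of genes and, as log2(TPM + 1), for limma 3.58.1; such fold changes understate those of low genes. Settings tried were DESeq2 1.42.0, its size factors in edgeR, library totals, no filter, only the groups compared, a replicate block, limma with pseudocounts of 1 and 0.1, and each heart left out; a fit without 2 hearts was added after the data were seen. A count of 3 was the floor, and floors cover counting error only.

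The members and lists were chosen with earlier results of these data known. Named besides the members were at most 3 genes per list and comparison, those with the largest change among the called with at least 1 CPM in the highest group, a few genes named whatever they did (*Per1*, *Klf9*, *Hsd11b2*, *H6pd*, *Fkbp4*, *Mdm2*, *Hsp90aa1*), and the 3 genes most like each member. Marker sums of 6 adipocyte genes (2.87 to 19.3 CPM over all hearts) and of 5 steroid-making cell genes (3.54 to 30.9 CPM, with 3 or 4 of the 5 at or under 3 counts in each group) were also taken. *Itgam* was left out of the macrophage sum because its symbol stands on more than 1 identifier. Gene positions came from GENCODE M21 and promoters from RefSeq. Protein sequences were not used here. The code was tested on simulated counts with known changes. Plots were made in Python 3.11.15 (matplotlib 3.10.9).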

Additional observations from a re-analysis of the deposited data

Results flagged for a closer look

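In 5 of the 30 groups of 4 hearts (10 members in 3 groups), the highest or lowest heart stood apart from the others, its gap to the nearest heart being a larger share of the group's range than Dixon's 95% critical value. Chance flags about 1 in 20 groups. The share does not measure the size of the difference. *Tsc22d3* was flagged as high in sham replicate 4 (share 0.912), and *Hsd11b1* as low in day 7 AMI replicate 2 (share 0.83). *Dusp1* was flagged as high in day 1 AMI replicate 2 (share 0.922), at 53.4 CPM against 44.6 to 45.3 in the other day 1 hearts. It was flagged as low in day 7 AMI replicate 2 (share 0.867), at 41.7 CPM against 51.4 to 53.1 in the other day 7 hearts. *Errfi1* was flagged as low in sham replicate 3 (share 0.858).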

How the results depend on the processing

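Of the members' values under other settings, 549 kept their direction and side of the threshold, 48 passed it where the reported value did not, 32 lost it and 31 changed direction. Members called on day 1 against sham, on day 7 against sham and between days, given as higher and lower, were 0 and 3, 0 and 5, and 1 and 1 as reported. They were 2 and 1, 2 and 3, and 2 and 1 with library totals; 2 and 0, 3 and 2, and 2 and 1 with limma on log2(TPM + 1); 2 and 0, 3 and 1, and 2 and 1 with a pseudocount of 0.1; 0 and 0, 2 and 1, and 1 and 1 with limma without the filter; 1 and 3, 0 and 6, and 0 and 2 without the filter in edgeR; 0 and 2, 1 and 5, and 2 and 2 with only the groups compared; 0 and 0, 0 and 2, and 0 and 1 at a fold change of 2; and 0 and 3, 1 and 5, and 2 and 3 without sham replicate 2 and day 1 AMI replicate 2. With 1 heart left out they ran from 0 to 1 and 2 to 4, from 0 to 1 and 5 to 6, and from 0 to 2 and 1 to 2. The replicate block gave 1 and 2, 0 and 5, and 2 and 2, but the numbers did not pair the hearts: 4 of 12 same-numbered pairs correlated above 0.1, from -0.24 to 0.23, and in 5 of 24 cases a heart correlated best with its own number.

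Directions that turned did so mostly with the scaling, which moved the median of all genes. On day 1 against sham, *Nr3c1* was 0.12 with library totals and, with limma at pseudocounts of 1 and 0.1, 0.22 and 0.23; *Hsd11b1* was 0.017, 0.077 and 0.085; *Tsc22d3* was 0.012 with limma at both. On day 7 against sham, *Dusp1* was 0.029, 0.24 and 0.25, *H6pd* 0.21, 0.35 and 0.37 and *Mdm2* 0.16, 0.26 and 0.26 in the same order; *Fkbp5* was 0.27 and 0.32 and *Sgk1* 0.079 and 0.081 with limma. Between days, *Errfi1* was 0.15 and 0.17 with limma, and 0.22 without day 1 AMI replicate 2, alone or with sham replicate 2. Limma without the filter gave the values of a pseudocount of 1. *Fkbp5* on day 1 was -0.13 without sham replicate 3, -0.0041 without sham replicate 4 and -0.37 without day 1 AMI replicate 2, and on day 7 it was 0.056 without sham replicate 2, alone or with day 1 AMI replicate 2. With each heart left out in turn, *Fkbp5* ran from -0.37 to 0.62 on day 1 and from -0.69 to 0.056 on day 7, and *Errfi1* from -0.32 to 0.22 between days. The cause of these changes was not tested. The members had at least 95 counts in every library, while *Hsd11b2* stayed near the floor, and the part of depth was not tested.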
